A study of Mus musculus with 6 samples.

Results

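NF-kB is a family of dimeric transcription factors, and its subunits and feedback inhibitors were followed here in mouse leukemia cells. The members are 10 genes chosen by name: the 5 subunit genes Rela, Rel, Relb, Nfkb1 and Nfkb2, and the 5 regulator genes Nfkbia, Nfkbie, Tnfaip3, Bcl3 and Nfkbiz. Of these, 9 had a row of their own among the 26082 different names of the expression table. Nfkbiz appeared only in a row joined with Fam55c, so that row is described separately and is not counted among the 9. RNA-Seq covered 6 samples from leukemic mice, 3 after vehicle (methyl cellulose) and 3 after DS-5272 at 80 mg/kg. DS-5272 is an oral drug that keeps MDM2 from binding p53. Leukemia cells were sorted from bone marrow 24 h after the dose. Mice in both groups carried the same kind of leukemia, made by retroviral transduction of MLL-AF9 with GFP into c-Kit+ bone marrow progenitors and passaged by serial transplantation. The MLL-AF9 construct uses a murine stem cell virus vector, the strain is C57BL/6J, and the ages of the mice and the number of independently transduced leukemias are not given in the sources used here. The labels number the samples 1, 2 and 3 in each group without saying what a shared number means. They also do not say whether each sample came from 1 mouse, and each sample is called a mouse below.

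In resting cells, dimers of NF-kB subunits are held in the cytoplasm by inhibitor of kappaB (IkB) proteins. Signals from cytokine and Toll-like receptors activate the IkB kinase (IKK) complex, which marks IkB for destruction and frees the dimers to enter the nucleus, while an alternative branch works through the kinase NIK and the processing of the Nfkb2 precursor. NF-kB then induces several of its own subunits and inhibitors, so IkB alpha and the ubiquitin-editing enzyme A20 shut the response down again. In myeloid cells the pathway drives the cytokines and chemokines of inflammation.

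NF-kB binds kappaB sites, and such sites are known in promoters of the pathway's own genes. The 250 bases upstream of annotated starts (RefSeq, GRCm38.p6) were searched on both strands for the kappaB consensus. The promoter table held 7 of the 10 members in 10 windows, and the consensus was found in 7 of 10 windows, belonging to 5 genes, against 7.25% of all 32851 windows. A looser pattern that contains the consensus (G at 3 positions, any base at 5, then C at 2) was found in 10 of 10 windows and in 45.8% of all windows. Neither Bcl3 nor Rela had a consensus match, which says only that these letters are not in the windows. The Nfkbia window, shown whole because IkB alpha is the classic feedback inhibitor, lies at chr12:55492648-55492897 on the minus strand, with the match in capitals, from 29 to 20 bases before the start.
Nfkbia, 250 bases upstream: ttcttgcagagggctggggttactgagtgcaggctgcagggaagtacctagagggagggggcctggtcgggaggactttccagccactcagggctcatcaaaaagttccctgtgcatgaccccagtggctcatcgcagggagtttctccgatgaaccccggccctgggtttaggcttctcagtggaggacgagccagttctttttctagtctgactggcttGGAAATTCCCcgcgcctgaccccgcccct
Sites of 30 bases around matches in the other 4 genes, with the match in capitals, are shown for comparison. The Tnfaip3 sites belong to the more upstream of its 2 annotated starts. The Nfkb2 sites shown belong to the first of its 3 annotated starts, and a match before each of the other 2 starts is not printed. The Rel site lies at chr11:23771041-23771070 (minus strand), the Tnfaip3 sites at chr10:19015516-19015545 and chr10:19015403-19015432 (minus strand), the Nfkbie site at chr17:45555584-45555613 (plus strand) and the Nfkb2 sites at chr19:46304689-46304718 and chr19:46304716-46304745 (plus strand).
Rel: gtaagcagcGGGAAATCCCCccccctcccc
Tnfaip3, 125 to 116 bases before the start: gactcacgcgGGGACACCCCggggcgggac
Tnfaip3, 12 to 3 bases before the start: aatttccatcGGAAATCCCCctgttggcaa
Nfkbie: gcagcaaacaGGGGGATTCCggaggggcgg
Nfkb2, 39 to 29 bases before the first start: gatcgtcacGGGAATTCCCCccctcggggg
Nfkb2, 11 to 2 bases before the first start: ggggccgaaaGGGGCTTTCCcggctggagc
The Tnfaip3 site nearest the start and both Nfkb2 sites shown overlap an exon of their gene in the GENCODE annotation. A match describes letters only, and binding was not measured.

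Expression is given in FPKM, fragments scaled by transcript length and library size, and n = 3 mice per group throughout. Fold changes are differences of means of log2(FPKM + 1), DS-5272 minus vehicle, with their standard error (SE), from limma fitted to the 11130 genes whose mean reached 1 FPKM. The adjusted p is the Benjamini-Hochberg value over these genes, and a gene passed the test under 0.05. All 9 members passed the filter on low values. FPKM summed to 445316.5 to 501241.2 in the vehicle mice and 499229.4 to 661184.1 in the DS-5272 mice, and relative depth, read from the lowest values, was 0.808 to 1 and 0.539 to 0.746 with vehicle mouse 1 as 1. Of the genes that passed, 52.4% were higher, or 32.4% when each sample was rescaled to a common total, which moved the median of all genes by −0.24. Of 8 tested genes of the MLL-AF9 and myeloid progenitor list, 2 were called higher and 2 lower, where 24.2% and 22.0% of all tested genes were. Meis1, a target of the fusion oncogene, was at 66.1 to 80.5 FPKM with vehicle and 69.2 to 110 with DS-5272 (adjusted p = 0.31), while the progenitor genes Mpo and Kit fell by 5.07 and 1.96 and the myeloid genes Itgam and Csf1r rose by 2.1 and 1.91 on the log2 scale (adjusted p = 0.0014, 0.0046, 0.0031 and 0.0006). NK cell markers summed to 0.764, 0.556 and 0.992 FPKM with vehicle and 4.16, 2.12 and 1.78 with DS-5272. T cell markers summed to 3.07 to 3.19 and 4.21 to 6.9 FPKM, and B cell markers to 4.59 to 5.4 and 3.58 to 4.58 FPKM. None of these sums overlapped, though the B cell groups nearly touched. Of 8 genes in each list, 7 NK, 6 T and 7 B cell genes were under 1 FPKM in every mouse. The T cell sum was mostly Lat, at 2.2 to 2.44 FPKM with vehicle and 2.76 to 2.96 with DS-5272, and Cd4, at 3.28 in DS-5272 mouse 1. The B cell sum was mostly Cd79b. Erythroid markers summed to 3.86, 2.38 and 1.94 FPKM with vehicle against 91.5, 16.9 and 8.28 with DS-5272.

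Among the activating subunits, which carry the transactivation domain, all 3 rose with DS-5272. Relb, the subunit of the alternative branch, was the scarcest member, at 1.2, 2.06 and 2.31 FPKM in vehicle mice 1, 2 and 3 and 4.59, 12.1 and 15 FPKM in DS-5272 mice 1, 2 and 3. Every treated mouse lay above every vehicle mouse, and mouse 1 was the lowest of its group on both sides. The fold change of Relb (chr7:19606217-19629438, minus strand, GRCm38) was 1.91 on the log2 scale (SE 0.40, adjusted p = 0.01).

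Rel, which encodes c-Rel, a subunit best known from lymphoid and myeloid activation, was at 4.62, 8.71 and 10.5 FPKM with vehicle and 12.8, 27.7 and 38.3 FPKM with DS-5272. The groups did not overlap, and each treated mouse was between 2.77 and 3.66 times its same-numbered vehicle mouse. Rel (chr11:23736847-23770970, minus strand), whose upstream site is printed above, rose by 1.54 on the log2 scale (SE 0.43, adjusted p = 0.025). Rela, the p65 subunit of the common canonical dimer, was far more abundant, at 44.3, 53.9 and 53.6 FPKM with vehicle and 59.5, 73.6 and 87 FPKM with DS-5272. The groups did not overlap here either, but the shift was small. Rela (chr19:5637483-5648130, plus strand) rose by 0.52 on the log2 scale (SE 0.16, adjusted p = 0.037). That call was lost with rescaling to a common total, where the fold change was 0.25 (adjusted p = 0.057).

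**Figure D1:**
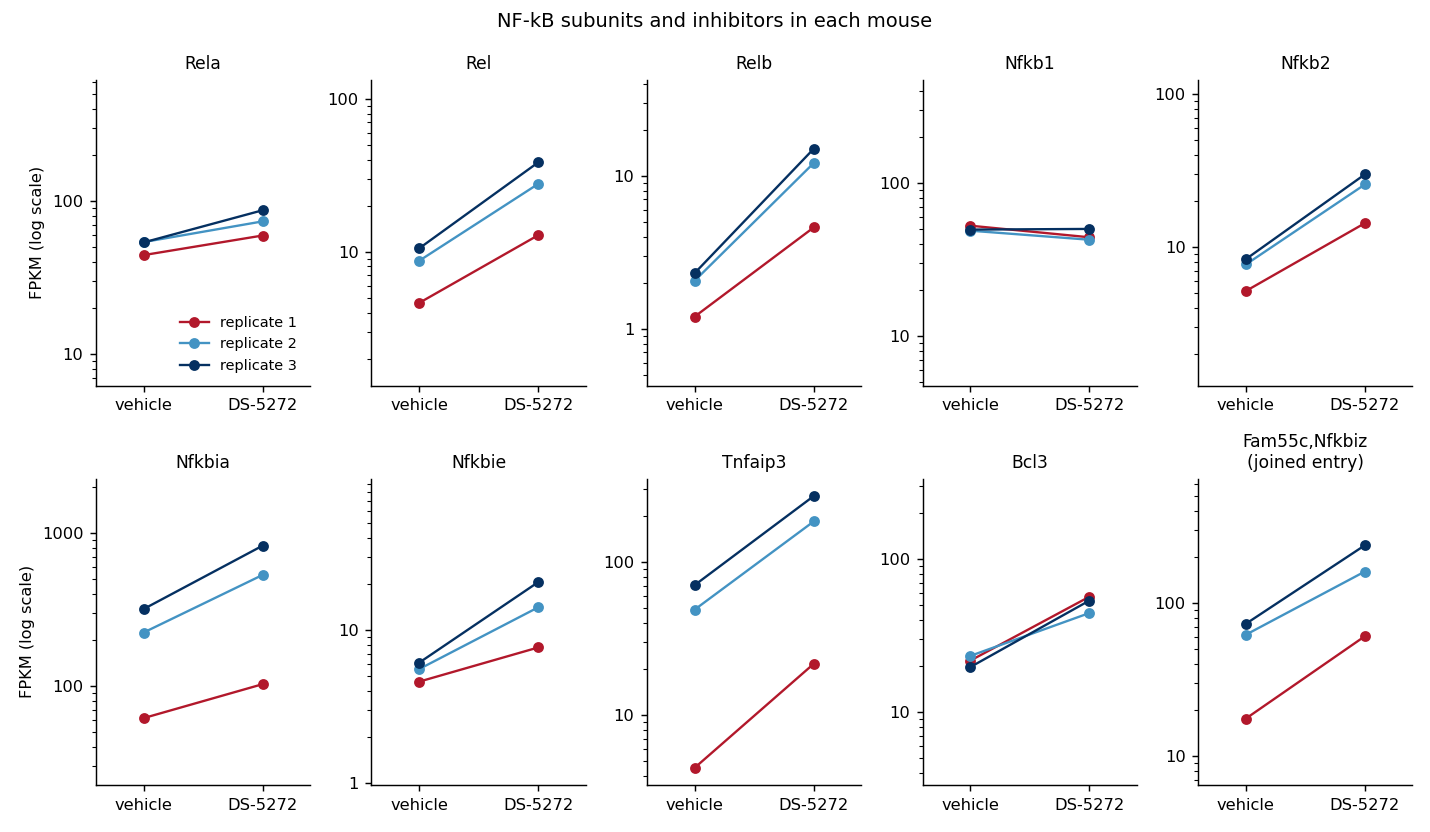
FPKM (log axis spanning the same number of decades in each panel) in each mouse for the 9 members and the joined row of Nfkbiz, vehicle and DS-5272, with lines joining same-numbered mice. The widest gap between mouse 1 and the others was in Tnfaip3, at 4.54 against 49.1 and 71 FPKM with vehicle, while Bcl3 and Nfkb1 lay nearly level within each group.

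The precursor subunits went separate ways. Nfkb2, the precursor of p52 and the partner of RelB, was at 5.15, 7.68 and 8.32 FPKM with vehicle and 14.3, 25.6 and 29.8 FPKM with DS-5272. All treated values were above all vehicle values, and Nfkb2 (chr19:46304320-46312385, plus strand) rose by 1.55 on the log2 scale (SE 0.29, adjusted p = 0.0072). An exon of Nfkb2 overlaps Psd and another annotated gene on the opposite strand, and whether fragments were counted by strand is not given in the sources used here. Nfkb1, the precursor of p50, was at 52.5, 48.7 and 49.5 FPKM with vehicle and 44.1, 42.5 and 50 FPKM with DS-5272. The groups overlapped, and the difference for Nfkb1 (chr3:135584655-135691547, minus strand) was −0.14 (SE 0.10, adjusted p = 0.27). With rescaling to a common total Nfkb1 was called lower, at −0.40 (adjusted p = 0.032), so its place depends on the scaling.

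Of the 3 cytoplasmic brakes, Nfkbie rose, while Nfkbia and Tnfaip3 were higher in each same-numbered pair without passing the test. Nfkbie, which encodes IkB epsilon, was at 4.61, 5.57 and 6.13 FPKM with vehicle and 7.71, 14.1 and 20.6 FPKM with DS-5272. The groups did not overlap, and Nfkbie (chr17:45555703-45563169, plus strand) rose by 1.15 on the log2 scale (SE 0.32, adjusted p = 0.025).

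Nfkbia, which encodes IkB alpha, was the most abundant member by mean level, at 61.8, 224 and 319 FPKM with vehicle and 103, 533 and 828 FPKM with DS-5272. Mice of one group differed more than the groups did: the highest vehicle mouse was 5.17 times the lowest, and the highest DS-5272 mouse 8.04 times the lowest. The fold change of Nfkbia (chr12:55489410-55492647, minus strand) was 1.12 on the log2 scale (SE 0.90, adjusted p = 0.33), and it was 0.42 without vehicle mouse 1, 0.51 without DS-5272 mouse 3, and 2.01 without DS-5272 mouse 1. Within same-numbered pairs the treated mouse was 1.67, 2.38 and 2.59 times the vehicle mouse. With the replicate number as a block in the fit, the SE was 0.14 and the adjusted p was 0.0026.

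Tnfaip3, which encodes A20, spread still further, at 4.54, 49.1 and 71 FPKM with vehicle and 21.7, 185 and 271 FPKM with DS-5272. DS-5272 mouse 1 lay below vehicle mice 2 and 3, so the groups overlapped. Tnfaip3 (chr10:19000910-19015657, minus strand) had a fold change of 1.95 on the log2 scale (SE 1.24, adjusted p = 0.23), and it was 0.80 without vehicle mouse 1, 1.26 without DS-5272 mouse 3 and 3.05 without DS-5272 mouse 1. The same-numbered pairs differed by 4.77, 3.76 and 3.81 times, and with the replicate block the SE was 0.09 and the adjusted p was 0.00032.

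The nuclear IkB proteins act on NF-kB already bound to DNA. Bcl3, a nuclear partner of p50 and p52 homodimers, was at 21.6, 23.2 and 19.6 FPKM with vehicle and 56.5, 44.2 and 53.3 FPKM with DS-5272. The groups stood apart with little spread inside each, and Bcl3 (chr7:19808462-19822770, minus strand, with an exon overlapping Gm16175 on the opposite strand) rose by 1.21 on the log2 scale (SE 0.12, adjusted p = 0.0016). Nfkbiz, which encodes IkB zeta, a nuclear coactivator of secondary response genes, lies at chr16:55811375-55838899 on the minus strand. The row that joins it with Fam55c was at 17.6, 62.2 and 73.3 FPKM with vehicle and 60.8, 161 and 239 FPKM with DS-5272. This row cannot be given to Nfkbiz alone, and its groups overlapped by 1 treated mouse. Its fold change was 1.59 on the log2 scale (SE 0.67, adjusted p = 0.089), and adjusted p = 0.00058 with the replicate block. It was 0.97 without vehicle mouse 1, and without DS-5272 mouse 1 it passed the test at 2.15 (adjusted p = 0.033).

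Counted together, 6 of 9 members passed the test as higher, namely Rel, Rela, Relb, Nfkb2, Nfkbie and Bcl3, where 24.2% of all tested genes did. None of the 9 was called lower by limma, against a background of 22.0%, and at an unadjusted p under 0.05 the members still numbered 6 higher and 0 lower. The same 6 had every treated value above every vehicle value, as did 32.1% of all tested genes. Their median fold change over all 9 was 1.21 on the log2 scale, beside 0.04 for all tested genes. The count fell to 3 without vehicle mouse 1, without vehicle mouse 2 or without DS-5272 mouse 2, and also without the filter on low values. Over all genes, 1971, 1654, 2491 and 2651 were called higher in these settings, in that order, beside 2697 in the main fit. Relb, Nfkb2 and Bcl3 kept their calls in every setting run, while Rel, Rela and Nfkbie each lost theirs in several, with an adjusted p of up to 0.073, 0.11 and 0.075.

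With the replicate block, 8 of 9 members passed as higher, against 30.3% of all tested genes, and 0 passed as lower, against 24.9%. Nfkbia and Tnfaip3 joined the list, and Nfkb1 stayed outside it (adjusted p = 0.27). All 8 were also higher in each same-numbered pair, a pattern that 41.8% of tested genes shared. With both mice numbered 1 left out, a choice made after seeing the data, 8 members were called higher as well, including Nfkbia at 1.31 (adjusted p = 0.03) and Tnfaip3 at 1.9 (adjusted p = 0.015). Over all genes, 2507 were called higher and 1651 lower in that fit.

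**Figure D2:**
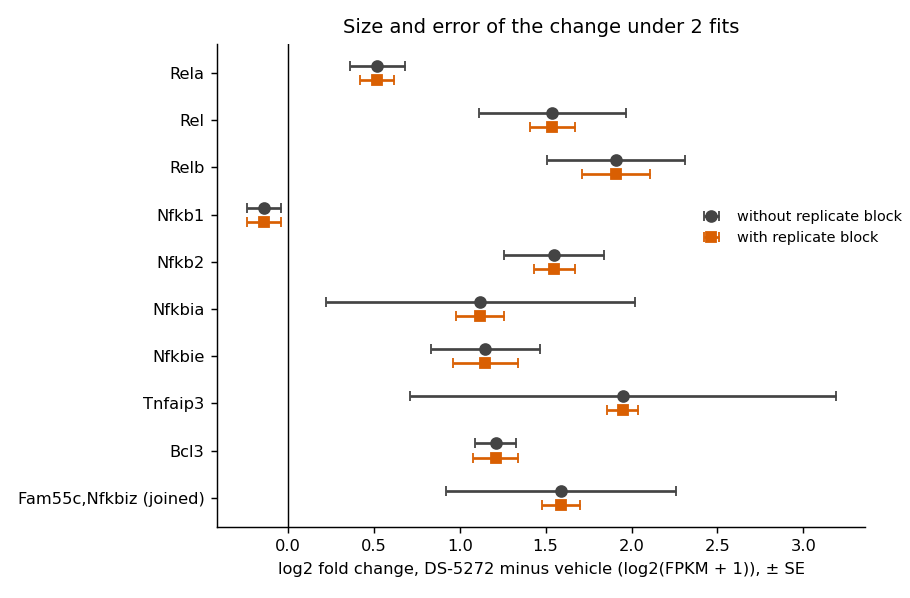
Log2 fold change of each member and of the joined row, DS-5272 minus vehicle on log2(FPKM + 1), with bars of ± SE from limma without and with the replicate number as a block. The bar of Tnfaip3 shrank from an SE of 1.24 to 0.09 and that of Nfkbia from 0.90 to 0.14, while that of Bcl3 stayed near its first size, at 0.12 and 0.13.

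Within each group, mouse 1 was next compared with mice 2 and 3. With 1 mouse against 2 there is no test, so these values are a description. Mouse 1 was the lowest in both groups for 7 of 9 members, Rel, Rela, Relb, Nfkb2, Nfkbia, Nfkbie and Tnfaip3, where 29.2% of all tested genes showed this. It was the highest in both groups for 0 of 9, against 20.1%. For Tnfaip3 the mean of mice 2 and 3 was 13.2 times mouse 1 with vehicle and 10.5 times with DS-5272. For Nfkbia the same ratios were 4.39 and 6.61, for Rel 2.08 and 2.58, and for Relb 1.81 and 2.95. Rela differed least among the 7, at 1.21 and 1.35 times. Over the 9 members the median gap of mouse 1 to the mean of the others was −0.53 on the log2 scale with vehicle and −1.05 with DS-5272, beside −0.01 and −0.06 for all tested genes.

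Other genes moved with the same mice. Immediate early genes such as Fos and Egr1, which cells switch on within minutes of a stimulus or of handling, summed to 318, 3690 and 3910 FPKM in vehicle mice 1, 2 and 3 and 1230, 6430 and 8420 FPKM in DS-5272 mice 1, 2 and 3. Mouse 1 was the lowest in both groups for 14 of these 15 genes, none of which was at 0, and 3 of 15 were called higher with DS-5272, or 12 with the replicate block. Over all tested genes these shares were 29.2%, 24.2% and 30.3%. Among the 3, Egr3, at a vehicle mean of 0.676 FPKM, entered the test only through the DS-5272 mice. The 10 neutrophil markers, which maturing myeloid cells also make, summed to 156, 1110 and 1660 FPKM with vehicle and 3190, 9500 and 15400 FPKM with DS-5272, and 8 of 10 were called higher, with none at 0. Among the 8, Ly6g, at a vehicle mean of 0.207 FPKM, also entered the test only through the DS-5272 mice. The 12 bone marrow macrophage markers summed to 67.2, 87.4 and 119 FPKM with vehicle and 482, 206 and 269 FPKM with DS-5272, so here DS-5272 mouse 1 was the highest, with 5 of 12 called higher and none at 0. Most of the vehicle sums was Vcam1, also a textbook target gene, at 36.6, 64.1 and 82.8 FPKM, and Emr1 (Adgre1), at 16.7, 17.6 and 23.3. With DS-5272 Emr1, among the 5 called higher (adjusted p = 0.0025), was at 59.8, 79.1 and 116 FPKM. It was the 1 gene of this list with mouse 1 lowest in both groups. The median gap of mouse 1 over this list was 0.18 on the log2 scale with vehicle and 2.0 with DS-5272. The part of these lists in the values of the members was not tested. In RNA from bulk cells, fewer cells of a type and less RNA per cell cannot be told apart.

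The spread of each gene over the 6 mice was also divided into a share that went with treatment, a share that went with the replicate number and a rest. Bcl3 was at one end, with 96.0% for treatment and 0.8% for the number. Nfkbia and Tnfaip3 were at the other, with 79.9% and 73.1% for the number and 18.9% and 26.8% for treatment. The joined row of Nfkbiz stood between them, at 46.3% for treatment and 53.2% for the number. In the subunits Rel, Rela, Relb and Nfkb2 treatment took 66.8% to 82.5%, near or above the median over all tested genes of 67.2%. Nfkbia and Tnfaip3 thus followed mainly the mouse number. Rel and Rela, at 66.8% and 67.0% for treatment, were at the level of the median gene. Their 32.2% and 29.3% for the number lay above its median of 19.1%. Relb and Nfkb2 had 78.5% and 82.5% for treatment, and Nfkb1 had 46.2%, with 24.9% for the number.

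**Figure D3:**
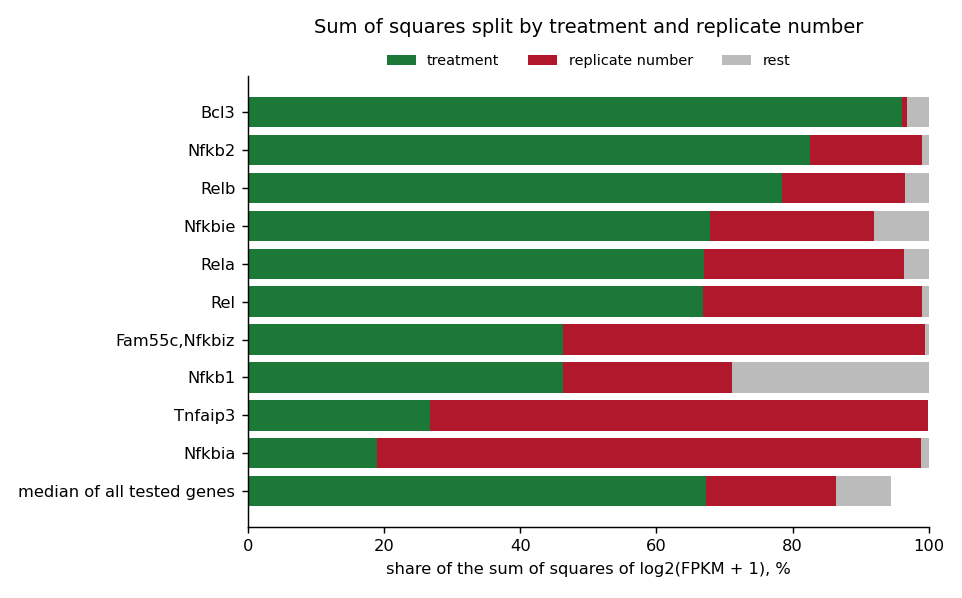
Share of the sum of squares of log2(FPKM + 1) over the 6 mice, in %, that went with treatment, with replicate number and with neither, for each member, the joined row and the median of all tested genes. The replicate number took 79.9% for Nfkbia and 0.8% for Bcl3, and the bottom bar holds a separate median for each share and so does not add up to the whole.

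The make-up of the subunit pool was read from the values of the same 5 genes, so it restates the changes above and is not a further result. The 5 subunits summed to 118 ± 8.74 FPKM with vehicle and 179 ± 42.5 FPKM with DS-5272 (SD). Nfkb1 made up 42.9% ± 5.0 of this sum with vehicle and 26.3% ± 5.5 with DS-5272. The share of Rel was 6.6% ± 2.1 and 14.0% ± 4.1, that of Nfkb2 was 5.9% ± 1.0 and 12.7% ± 1.9, and that of Relb was 1.6% ± 0.4 and 5.6% ± 1.9. For each of these 4 shares the groups did not overlap, and the exact two-sided permutation test gave p = 0.1, the smallest that 3 mice against 3 allow. The share of Rela was 42.9% ± 1.7 and 41.3% ± 2.3 (exact permutation p = 0.4). Shares within a mouse do not depend on how the mice were scaled to each other.

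Inhibitors were set against subunits in the same way. The sum of Nfkbia, Nfkbie and Tnfaip3 over the sum of the 5 subunits was 0.658, 2.3 and 3.19 in vehicle mice 1, 2 and 3 and 0.979, 4.03 and 5.09 in DS-5272 mice 1, 2 and 3. The ratio was higher with DS-5272 in each same-numbered pair, by 0.57, 0.81 and 0.67 on the log2 scale. The groups overlapped, however, and the mean difference of 0.69 had p = 0.5 in the exact permutation test. That difference rested on single mice, at 0.01 without vehicle mouse 1, 1.14 without vehicle mouse 3, and 1.42, 0.4 and 0.23 without DS-5272 mouse 1, 2 and 3. Nfkbia over Rela alone gave 1.39, 4.15 and 5.95 with vehicle and 1.73, 7.24 and 9.52 with DS-5272, with the same p = 0.5 in that exact test. In both groups the summed FPKM of these 3 inhibitors was below that of the 5 subunits in mouse 1 only, and narrowly so with DS-5272 (0.979). Set against Rela alone, the same inhibitor sum was the larger in every mouse, at 1.6 and 2.23 times Rela in vehicle and DS-5272 mouse 1.

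**Figure D4:**
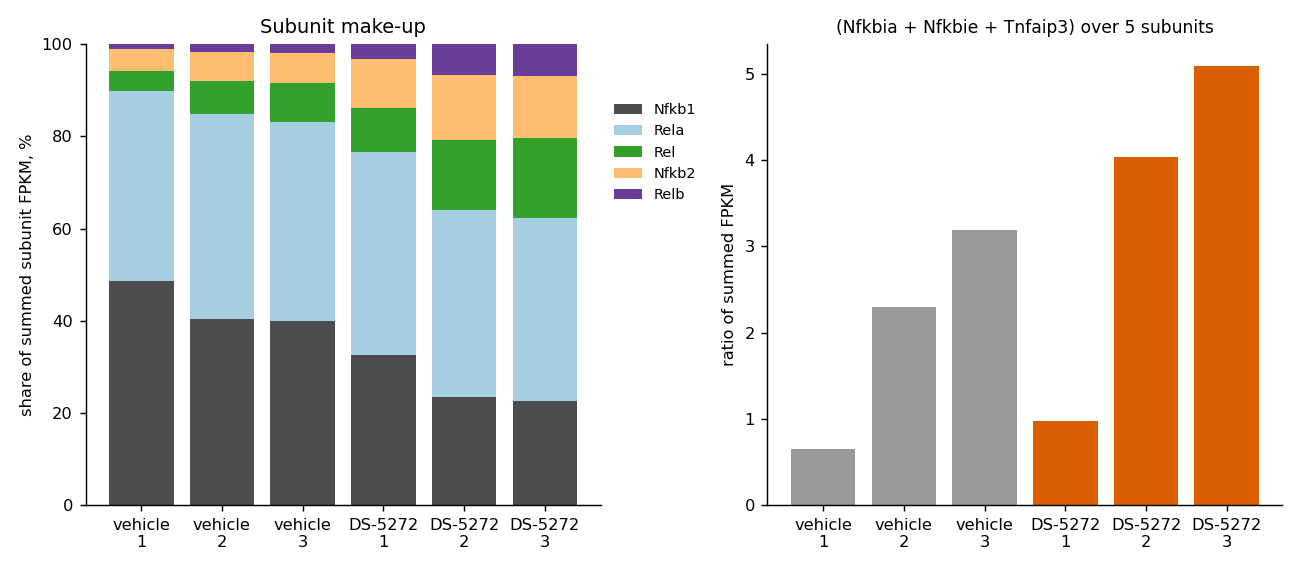
Left, share of the summed FPKM of the 5 subunits, in %, in each mouse. Right, ratio of the summed FPKM of Nfkbia, Nfkbie and Tnfaip3 to that of the 5 subunits, which was 0.658 and 0.979 in the mice numbered 1 and between 2.3 and 5.09 in the others, while the share of Nfkb1 was 39.9% to 48.7% with vehicle and 22.7% to 32.6% with DS-5272.

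FPKM is scaled to transcript length, so levels may be ordered between genes. By mean FPKM the order with vehicle was Nfkbia, Rela, Nfkb1, Tnfaip3, Bcl3, Rel, Nfkb2, Nfkbie and Relb. Neighbours in this order were separated beyond the spread of the mice at 3 places, Nfkbia above Rela, Bcl3 above Rel and Nfkbie above Relb. With DS-5272 the order was Nfkbia, Tnfaip3, Rela, Bcl3, Nfkb1, Rel, Nfkb2, Nfkbie and Relb, and only Rela above Bcl3 and Nfkb1 above Rel were separated. All other neighbours overlapped across mice. Read inside each mouse, Nfkb2 was above Nfkbie in every mouse of both groups. With DS-5272, Nfkbia was also above Tnfaip3, Bcl3 above Nfkb1 and Nfkbie above Relb in every mouse. The remaining neighbours changed order between mice.

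Other genes of the pathway were then read by role, from lists of 103 genes of which 98 had a row of their own and 83 were tested. Of the 83, 47 were called higher and 2 lower, 34 were not called, and the median fold change was 0.78 on the log2 scale. With the replicate block 62 were called higher and 1 lower, and mouse 1 was the lowest in both groups for 46. The 47 and the 62 include genes that entered the test only through the DS-5272 mice, named below with their roles. Over all tested genes 24.2% were called higher and 22.0% lower, or 30.3% and 24.9% with the block. Mouse 1 was the lowest in both groups for 29.2%. The same shares stand beside the count of each role below. The ligands that start the signal included 4 of 6 called higher and 0 lower, with a median of 1.41. Il1b, which encodes interleukin-1 beta, was at 1.01, 9.63 and 13 FPKM with vehicle and 30.5, 194 and 347 FPKM with DS-5272, and rose by 4.27 on the log2 scale (SE 1.05, adjusted p = 0.017). Il1a rose by 1.77 (SE 0.42, adjusted p = 0.015) and Ltb, a ligand of the alternative branch, by 1.13 (SE 0.24, adjusted p = 0.011), both from a vehicle mean under 1 FPKM. Both entered the test only through the DS-5272 mice, so these 2 of the 4 calls are not independent of the filter. Tnf, shown beside them after its values were seen, was at 4.31, 35.6 and 68.7 FPKM with vehicle and 19.9, 133 and 159 FPKM with DS-5272. Its groups overlapped, and its difference of 1.68 did not pass the test (adjusted p = 0.25, or 0.0015 with the replicate block).

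Of 7 tested receptors, 6 were called higher and 0 lower. Tlr2, the receptor of bacterial lipoproteins, was at 15.3 ± 4.66 FPKM with vehicle and 85.1 ± 23.2 FPKM with DS-5272 (SD), a rise of 2.41 on the log2 scale (SE 0.28, adjusted p = 0.0021). Cd14, the coreceptor for lipopolysaccharide, rose by 2.63 (SE 0.66, adjusted p = 0.018), and Tlr9, the receptor of unmethylated DNA, by 1.69 (SE 0.46, adjusted p = 0.023). Among 21 adaptors and upstream kinases 11 were called higher and 1 lower. Irak2, a kinase downstream of Toll-like and interleukin-1 receptors, was at 10.8 ± 0.231 FPKM and 40.8 ± 9.18 FPKM (SD) and rose by 1.81 (SE 0.16, adjusted p = 0.001). Map3k8, a kinase held by the Nfkb1 precursor, rose by 1.53 (adjusted p = 0.011) and Traf5 by 0.82 (adjusted p = 0.0036). Map3k7, which encodes TAK1, the kinase that activates IKK, was the 1 called lower, at −0.27 (adjusted p = 0.044), and was not called with the replicate block (adjusted p = 0.06).

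In the group of IKK, NIK and the linear ubiquitin ligase, 5 of 7 were called higher and 0 lower. Map3k14, which encodes NIK, went from 5.06 ± 0.579 to 12.2 ± 2.43 FPKM (SD), a rise of 1.12 on the log2 scale (SE 0.16, adjusted p = 0.0036). Ikbke, a noncanonical IKK, rose by 1.33 (SE 0.31, adjusted p = 0.014), and Rnf31, a subunit of the ubiquitin ligase, by 0.57 (SE 0.10, adjusted p = 0.0069). Of 18 other inhibitors, 9 were called higher and 1 lower. Nfkbid, another nuclear IkB gene, was at 7.99, 21 and 24.1 FPKM with vehicle and 31, 84.7 and 118 FPKM with DS-5272, and rose by 2.02 (SE 0.57, adjusted p = 0.027). The RNase gene Zc3h12a, whose product destroys cytokine transcripts, rose by 1.77 (adjusted p = 0.018), and Birc3, a ubiquitin ligase that keeps NIK low, by 1.08 (adjusted p = 0.0098). Nkrf, a repressor of NF-kB target promoters, fell by 1.01 on the log2 scale (SE 0.21, adjusted p = 0.01), from 6.77 ± 0.887 to 2.94 ± 0.974 FPKM (SD).

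Among 24 textbook target genes, 12 were called higher and 0 lower, with a median of 1.44, and 22 were called higher with the replicate block. Of the 12, Bcl2a1b, Bcl2a1d and Ccl5, at vehicle means of 0.322, 0.351 and 0.986 FPKM, entered the test only through the DS-5272 mice. So did Il23a and Cxcl3, at vehicle means of 0.753 and 0.331 FPKM, which were called only with the block. None of these calls is independent of the filter. Mouse 1 was the lowest in both groups for 18 of the 24, beside 29.2% of all tested genes. Ccl4, a chemokine that draws monocytes and NK cells, was at 11.3, 32.3 and 30.3 FPKM with vehicle and 142, 396 and 588 FPKM with DS-5272, a rise of 3.78 on the log2 scale (SE 0.59, adjusted p = 0.0047). The monocyte chemokine gene Ccl2 rose by 3.71 (SE 0.78, adjusted p = 0.01), and Clec4e, a receptor that senses damaged cells, by 1.67 (SE 0.15, adjusted p = 0.0012). Clec4e differed from most of the list in that mouse 1 stood close to its group, at 65.6, 68.5 and 74.5 FPKM with vehicle and 208, 193 and 276 FPKM with DS-5272. Ccl20 was listed at 0 in every mouse. Of the 20 genes named from these lists for the size of their change, 7 (Ikbke, Il1a, Il1b, Irak2, Map3k14, Rnf31 and Traf5) have an exon that overlaps another gene, so their values may include its fragments.

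**Figure D5:**
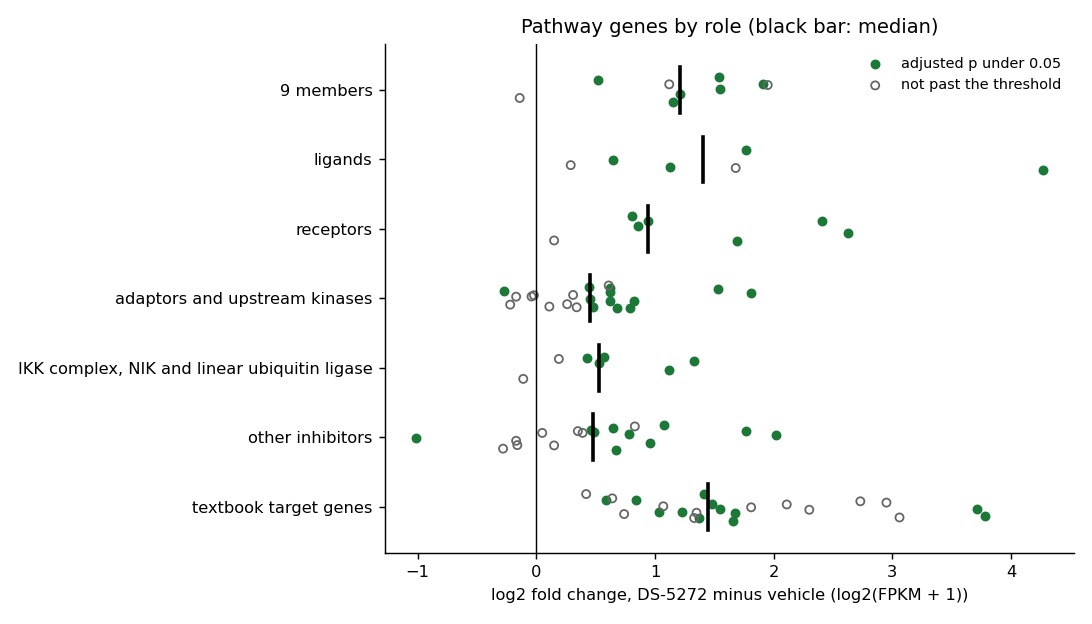
Log2 fold change, DS-5272 minus vehicle on log2(FPKM + 1), of each tested pathway gene by role, with a point for each gene marked by whether it passed the test and a black bar at the median. Most points lie to the right of 0 in every role, with medians from 0.45 in the adaptors and upstream kinases to 1.44 in the textbook target genes, and the members stand in a row of their own.

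The pattern most like that of the members over the 6 mice was sought among all tested genes. The measure was Pearson's r with the mean of the members' standardized values, and it is given as a description over 6 mice that share treatment and number. The 5 nearest were the joined row of Zeb2, Gtdc1 and Mir5129 and the genes Fbxo33, Prkab1, Gm16712 and Vps4a, with r between 0.998 and 1. Fbxo33, for example, was at 8.87, 11.5 and 12 FPKM with vehicle and 12.9, 20.1 and 26.2 FPKM with DS-5272. Among the members, which form the mean themselves, r was 0.996 for Rela, 0.992 for Rel and 0.989 for Nfkbie. It was 0.729 for Bcl3 and −0.354 for Nfkb1, the members least like the rest.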

How the data were processed

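RNA from sorted leukemia cells of 3 vehicle and 3 DS-5272 mice was made into strand-specific libraries (SureSelect) and sequenced from both ends. Per the submitters' processing notes and the study's methods, reads were trimmed with cutadapt 1.8.1, aligned to GRCm38 with TopHat2 2.1.1 and quantified with Cufflinks 2.2.1. The deposited values are FPKM, so length and library size were divided out by the authors, no counts are given, and read totals are unknown. Relative depth was read from the steps of genes under 0.15 FPKM.

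Of 26632 rows, those sharing a symbol (435 names) were summed, and 433 rows that join several genes were kept as single entries. The 11130 genes whose mean reached 1 FPKM were compared on log2(FPKM + 1), which understates changes of low genes, with limma 3.58.1 in R 4.3.3 (eBayes with a trend, two-sided, Benjamini-Hochberg, threshold 0.05), tested on simulated data first. Ratios and shares had an exact permutation test, which cannot go below 0.1. Nothing in the labels says whether a shared replicate number is a batch, and p-values measure the spread between these mice. Deviations from the group means correlated by 0.658, 0.209 and 0.43 between mice of the same number and by −0.576 to 0.335 otherwise. The 0.335 was between vehicle mouse 2 and DS-5272 mouse 3, above the 0.209 of the mice numbered 2. The block fit treated the numbers as pairing the mice. These correlations set apart mouse 1 only, do not show that mice 2 and 3 are paired by number, and come from the same values as the fit.

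Named genes were every member, in each role list the 3 largest changes past the threshold and the largest the other way, and the 5 genes most like the members. Tnf, Fos, Egr1, Meis1, Mpo, Kit, Itgam, Csf1r, Vcam1, Emr1, Pecam1, Bcl2a1b, Bcl2a1d, Ccl5, Il23a, Cxcl3, Egr3, Ly6g, Lat, Cd4 and Cd79b were chosen after their values were seen. Tlr1, Tlr6, Irak1, Chuk and Tbk1, in joined rows, were left out, and Otulin was read under the symbol Fam105b. Members, lists and tests were chosen with earlier results of these data known. Other markers summed to 29.1 to 60 FPKM with vehicle and 73.4 to 113 with DS-5272 for stroma and endothelium, and 2.94 to 3.16 and 6.22 to 8.69 for megakaryocytes. The stroma and endothelium sum was nearly all Pecam1, at 26.4 to 58.8 FPKM with vehicle and 68.3 to 109 with DS-5272. Of the 9 genes in that list, 7 were under 1 FPKM in every mouse. Alternatives were a pseudocount of 0.1, no filter or a mean of 5 FPKM or more, 3 rescalings, eBayes with no trend, the replicate block, a minimum log2 fold change of 1, other forms of the ratio and leaving out each mouse.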

Additional observations from a re-analysis of the deposited data

How the results depend on the processing

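The values of the 9 members kept their sign under each alternative run. The count of members called higher was 3 without the filter on low values and 3 to 6 when each mouse was left out in turn. With a common total 1 member, Nfkb1, was called lower. The count of pathway genes called lower, 2 as reported, was 1 with a mean of at least 5 FPKM, with the replicate block, with eBayes without the trend, with a minimum log2 fold change of 1 and with both mice numbered 1 left out (chosen after seeing the data). It was 4 with a common upper quartile, 7 with a common total and 1 to 2 when each mouse was left out. Pathway genes called higher numbered 23 with a minimum log2 fold change of 1. Over all genes, 5148 calls became 1599 with that limit, 978 higher and 621 lower. They were 3058 to 5366 when each mouse was left out, 1654 to 2920 higher and 1404 to 2446 lower, with the fewest without vehicle mouse 2, and 1706 higher with a common total. With the replicate block, 8 members were called higher, and in these paired comparisons Nfkbia and Tnfaip3 gained the call. The inhibitor ratio was 0.01 to 1.42 on the log2 scale when each mouse was left out. Depth is unknown and limits the lowest genes most.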
